A study of Mus musculus with 6 samples.

Results

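The lysosome is the acidic compartment in which cells break down protein, sugar chains, lipids and whole organelles. Most of its enzymes work best while the vacuolar proton pump (V-ATPase) keeps the lumen acid. Cargo from inside the cell reaches the lysosome through autophagy, in which a double membrane closes around cytoplasm and fuses with the lysosome. Many of these genes are controlled together by TFEB and TFE3, transcription factors of the MiT/TFE family that stay in the cytoplasm while the growth kinase complex mTORC1 is active and otherwise bind a short E-box element in lysosomal promoters. In the myeloid lineage, lysosomal proteases and membrane proteins are best known from granulocytes and macrophages.

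Described here are 43 lysosome, autophagy and TFEB genes in I1DN acute myeloid leukemia cells, named in a fixed list and matched by gene symbol among the 54838 genes of the count table. They comprise 8 cathepsins and other proteases, 10 glycosidases and sulfatases, 6 lipid-handling and activator proteins, 6 lysosomal membrane proteins, 6 V-ATPase subunits, *Tfeb* and *Tfe3*, and 5 autophagy genes. I1DN is a murine leukemia on a C57BL/6 background that carries IDH1R132H, DNMT3AR882H and NrasG12D, introduced as constructs into fetal liver stem and progenitor cells. Cells of this leukemia were transplanted into sublethally irradiated *Ptprca* recipients, so that all samples share the 3 mutant alleles and the conditioning. The 3 AG636 samples came from mice given AG636, an inhibitor of the pyrimidine synthesis enzyme DHODH, by gavage at 100 mg/kg b.i.d., and the 3 Vehicle samples came from mice given vehicle alone. Ages of the mice and the length of treatment are not in the labels. Legends of the study that describe this experiment give the length both as 1 day and as 4 days, so it is not settled here. The study sorted the cells as cKit-positive with low or no CD11b. Whether a given sample was sorted from bone marrow or spleen is not stated, and a shared stock of transplanted leukemia cells would make the mice replicates of the host and the treatment rather than of the leukemia.

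RNA was read with a 3′-end method (QuantSeq), which gives about 1 read per transcript whatever its length, and levels are given as CPM, read counts brought to the same scaled library size in every sample. Total counts ran from 4634963 to 7906589 per sample. Genes were tested with edgeR's quasi-likelihood test over the 11092 genes with enough counts, adjusted by Benjamini-Hochberg, and a gene was called at an adjusted p under 0.05. All 43 genes had enough counts to be tested, from 124 counts in total for *Manba* to 17568 for *Laptm5*. The sorted cells carried *Kit* at 38.6 ± 6.03 CPM in Vehicle samples and 42.8 ± 4.8 in AG636 samples (SD, n = 3), with *Myb* at 467 and 478. The library of Vehicle replicate 1 and that of AG636 replicate 2 stood apart within their groups, with the lowest summed level of 6 immature leukemia markers, at 1977 and 1465 CPM against 3085 to 3731 in the other samples. *Mpo*, the granule enzyme myeloperoxidase, made up most of this gap, at 1252 and 618 CPM against 1704 to 2772. *Cd34*, *Myb* and *Sox4* were also lowest of their groups in both libraries. *Kit* was highest of its group in Vehicle replicate 1 at 43.1 CPM and lowest of its group in AG636 replicate 2 at 37.3 CPM. *Flt3*, too low to test, was highest of its group in AG636 replicate 2 at 4.33 CPM. Both libraries also had the highest summed level of 8 erythroid markers in their groups, at 4942 and 3478 CPM against 1822 to 3204 in the other samples. Calls among the 43 genes that change without these libraries are given beside the gene.

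With AG636, 9 of the 43 genes were called higher (20.9%), against 10.3% of all genes tested, and 21.3% of all genes tested were called in either direction. None was called lower by edgeR, against 11.0% of all genes tested, although 1 gene, *Ctsz*, was lower at an unadjusted p under 0.05. DESeq2 called it and limma-voom did not. The 3′ reads come from bulk RNA, in which more cells of a type and more RNA per cell cannot be told apart. The 9 genes were *Grn*, *Psap*, *Map1lc3b*, *Ulk1*, *Lamp2*, *Laptm5*, *Man2b1*, *Npc1* and *Ctss*. In 20 of the 43 genes all 3 AG636 samples lay above all 3 Vehicle samples, against 2276 of all 11092 genes tested (20.5%). In 2 of the 43 they lay below, against 2286 of the 11092 (20.6%). The median log2 fold change was 0.31 over the 43 genes, with 32 above 0 and 11 below. Over all genes tested it was 0.03, with 5797 above 0 and 5286 below. By role, the calls were 3 of 6 among lipid-handling and activator proteins, 2 of 5 among autophagy genes, 2 of 6 among membrane proteins, 1 of 8 among proteases, 1 of 10 among glycosidases, and none among V-ATPase subunits, *Tfeb* and *Tfe3*. The number of calls fell to 5 without AG636 replicate 3 (*Grn*, *Psap*, *Map1lc3b*, *Ulk1* and *Lamp2*). Scaling by library size alone called 13 of the 43 higher, with 1483 of all genes higher and 913 lower in place of 1146 and 1222.

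**Figure D1:**
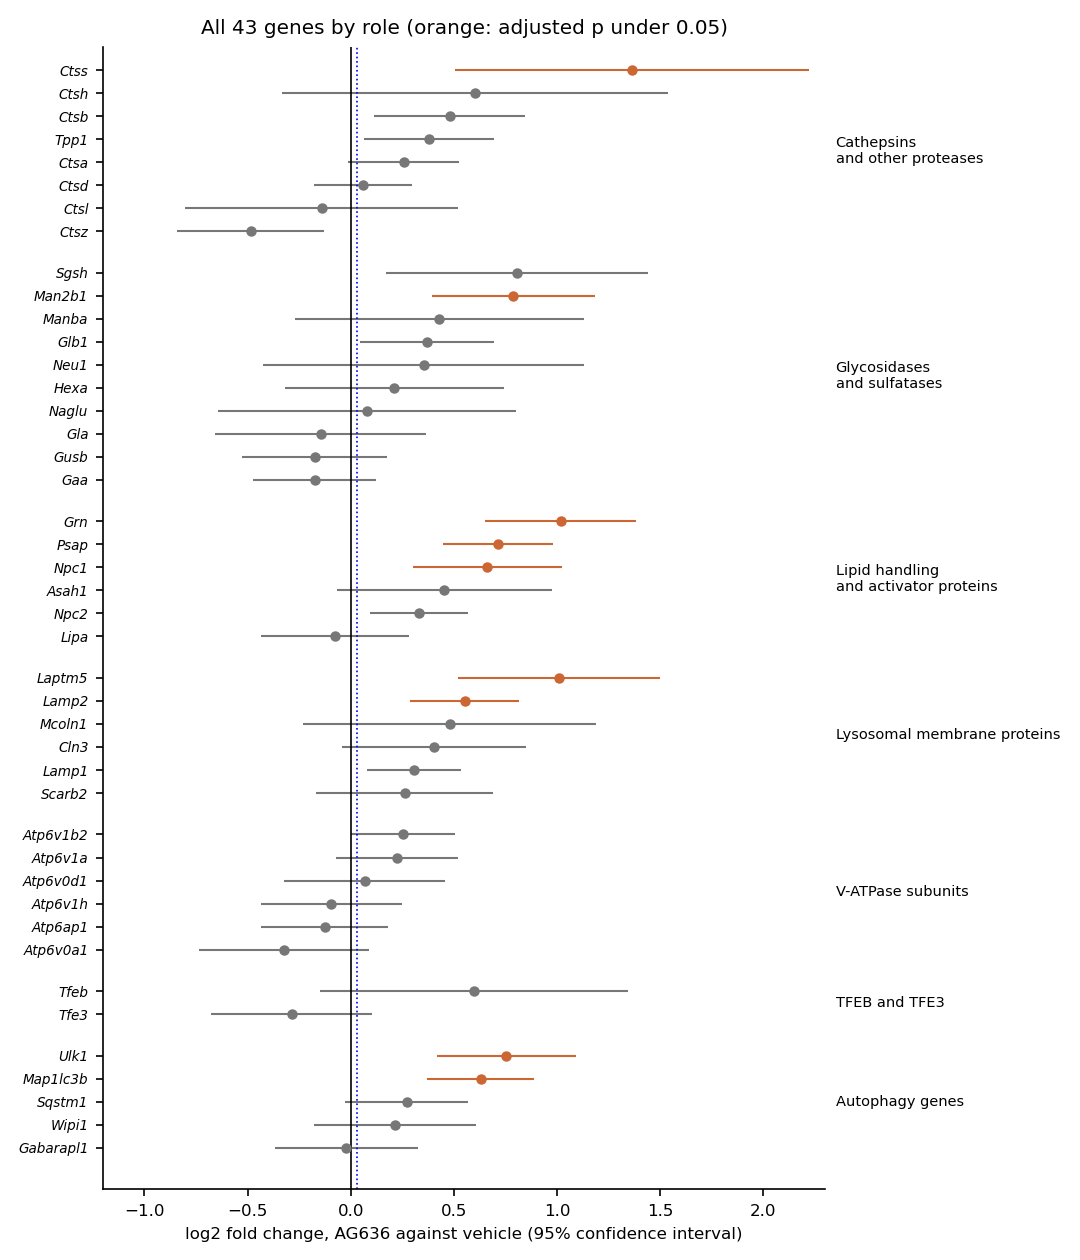
Log2 fold change of each of the 43 genes, AG636 against vehicle (x axis), grouped by role, with points for the estimate and bars for its 95% confidence interval from edgeR's fit. The 9 called genes are orange, the dotted line is the median of all genes tested (0.03), and the V-ATPase subunits have a median of -0.01.

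Granulocyte markers were higher with AG636. Of the monocyte and macrophage markers tested, 8 had a log2 fold change above 0 and 1 below, while *Cd14*, not tested, was lower. Of 10 granulocyte markers, 8 were called higher (4 without Vehicle replicate 1), and their summed level ran from 1049 to 2394 CPM with vehicle and from 2929 to 5948 with AG636. *S100a8* and *S100a9* made up most of that sum, with means of 1979 and 1448 CPM with AG636. *Itgam*, which encodes CD11b and against which the cells were sorted, was at 19.1 ± 7.45 CPM in Vehicle samples and 44.2 ± 14.6 in AG636 samples (SD, n = 3), and *Ly6g* was at 1.64 and 4.96. Of 9 monocyte and macrophage markers tested, *C1qb* and *Ly6c2* were called higher, and none without AG636 replicate 3 or in limma-voom, with 2 higher at an unadjusted p under 0.05 in each. The summed level of all 13 ran from 61.0 to 93.0 CPM with vehicle and from 116 to 165 with AG636, and *Marco*, *Mrc1* and *Cd163* were each under 1 CPM on average in both groups. *Cd14*, too low to test, had 3.39, 1.96 and 5.64 CPM with vehicle and 1.27, 0.619 and 1.89 with AG636, where all samples were below the Vehicle samples. Of 6 immature leukemia markers, 5 were tested and *Sox4* was called higher. Without Vehicle replicate 1 edgeR called none of the 6 then tested (2 higher and 1 lower at an unadjusted p under 0.05), and DESeq2 called 2 with all samples. Of 10 lymphocyte markers 8 were too low to test, and the other 2 were not called by edgeR, DESeq2 or limma-voom (none at an unadjusted p under 0.05 in edgeR), and the erythroid marker *Klf1* was called lower.

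Summed over the 43 genes, the level was 4021, 4405 and 4436 CPM with vehicle and 5713, 5316 and 5925 with AG636. *Ctss* was highest in AG636 replicate 2, as were the macrophage complement genes *C1qa*, *C1qb* and *C1qc* at 10.72, 15.05 and 13.2 CPM. The granulocyte markers *Camp*, *Ly6g*, *Mmp8* and *Retnlg* were highest there too, with *Retnlg* at 17.8, 39.4 and 21.1 CPM in the 3 AG636 samples. The granulocyte markers *Itgam* and *S100a8* were lowest of their group there. So were the monocyte and macrophage markers *Csf1r*, *Adgre1*, *Cd14* and *Ly6c2*, the last at 40.2 CPM. The part of these markers in the changes of the 43 genes was not tested.

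**Figure D2:**
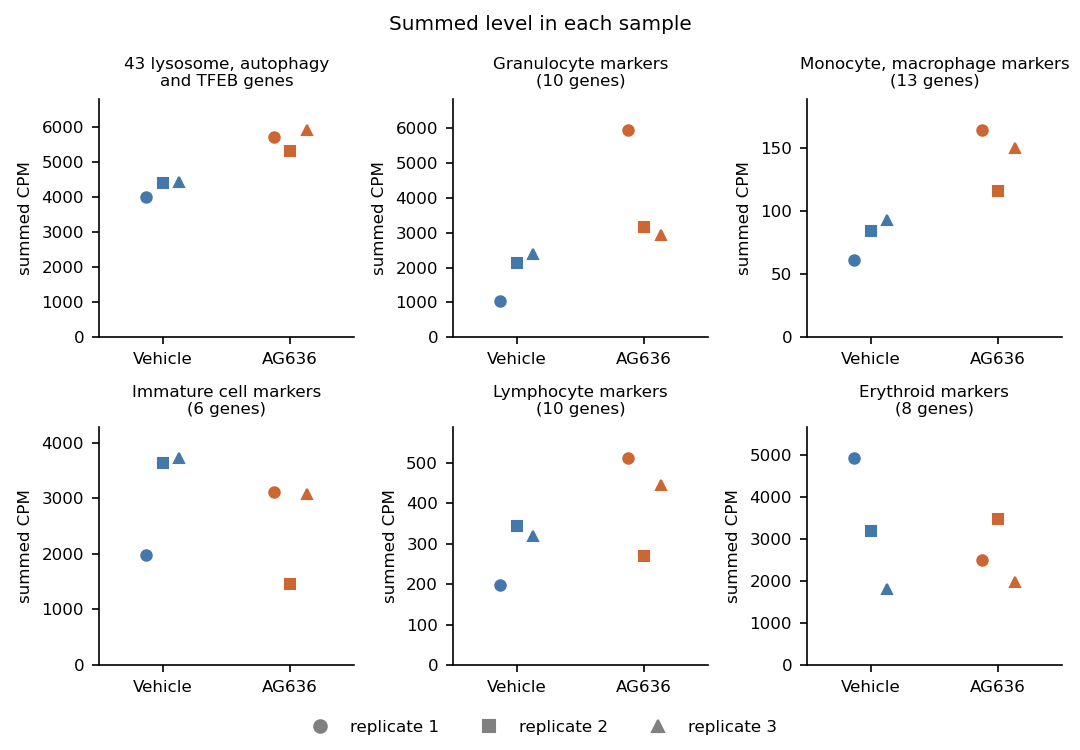
Summed CPM in each sample (y axes, from 0) of the 43 genes and of 5 marker lists, with a symbol for each replicate number. The sums of the 43 genes, granulocyte markers, and monocyte and macrophage markers do not overlap between the groups, while the other 3 lists overlap.

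Lysosomal promoters under TFEB and TFE3 carry an E-box, CACGTG, and the fullest form of this element is the palindrome GTCACGTGAC. RefSeq windows of 300 bases, from 250 bases before to 50 after an annotated start (GRCm38.p6, the build of the count table), were found for 37 of the 43 genes. *Ctsb*, *Ctsh*, *Asah1*, *Npc1*, *Atp6v1b2* and *Atp6v1h* had none. CACGTG, which reads the same on both strands, lay in a window of 13 of the 37 genes (35.1%), against 8.09% of all 27025 genes with a window and 12.3% of the 8424 among the genes tested. The longer TCACGTGA, which contains it, lay in 7 of the 37 (18.9%), against 1.12% of all genes and 2.36% of those tested, and the full palindrome lay in 1, *Cln3*, against 0.370% of all genes and 0.890% of those tested. Sites from 8 of the 13 genes are shown, 30 bases of the sense strand around each, with the E-box in capitals.

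Lamp1, lysosomal membrane glycoprotein, chr8:13159088-13159117, 61 bases before the start: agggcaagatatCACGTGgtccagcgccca
Mcoln1, lysosomal calcium channel, chr8:3500462-3500491, 45 bases before: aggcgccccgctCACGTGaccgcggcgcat
Cln3, lysosomal membrane protein, chr7:126583340-126583369, 121 bases before: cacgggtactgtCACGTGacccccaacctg
Ctsa, carboxypeptidase, chr2:164833749-164833778, 12 bases before: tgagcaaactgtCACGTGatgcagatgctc
Ctsd, aspartic protease, chr7:142387908-142387937, 98 bases before: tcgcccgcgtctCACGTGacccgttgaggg
Sgsh, heparan sulfatase, chr11:119355522-119355551, 29 bases before: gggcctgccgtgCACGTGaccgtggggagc
Glb1, beta-galactosidase, chr9:114401018-114401047, 48 bases before: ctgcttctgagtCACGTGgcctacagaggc
Atp6v0d1, V-ATPase subunit, chr8:105566050-105566079, 3 bases before: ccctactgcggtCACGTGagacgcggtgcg

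None of these 13 genes, which also include *Ctsl*, *Gaa*, *Gla*, *Naglu* and *Atp6v1a*, was called with AG636 by edgeR, DESeq2 or limma-voom, and in edgeR 3 were higher at an unadjusted p under 0.05. The median log2 fold change of the 13 was 0.22, from -0.17 for *Gaa* to 0.81 for *Sgsh*. In 4 of them all AG636 samples lay above the Vehicle samples, against 164 of the 1032 genes tested with an E-box. Of the 24 genes with a window and no E-box, 8 were called higher, and the median of the 24 was 0.34. In 12 of the 24 all AG636 samples lay above the Vehicle samples, against 1527 of the 7392 genes tested without an E-box. The called genes with a window were therefore all without these letters in it, and *Npc1* had no window. Over all genes tested the share called higher was 6.78% with an E-box and 10.6% without, and the share called lower was 16.6% with and 10.5% without. The division of the 43 genes was seen in the data and was not tested, and it moves with the processing: *Lamp1* passed with library size alone (edgeR adjusted p = 0.0234) and *Sgsh* when at least 10 counts were required in every sample (edgeR adjusted p = 0.0499). A related core, CATGTG on either strand, was searched after the E-box was seen and lay in 8 of the 37 genes (21.6%), *Grn* and *Ctss* among them, against 15.9% of all genes and 9.88% of those tested.

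**Figure D3:**
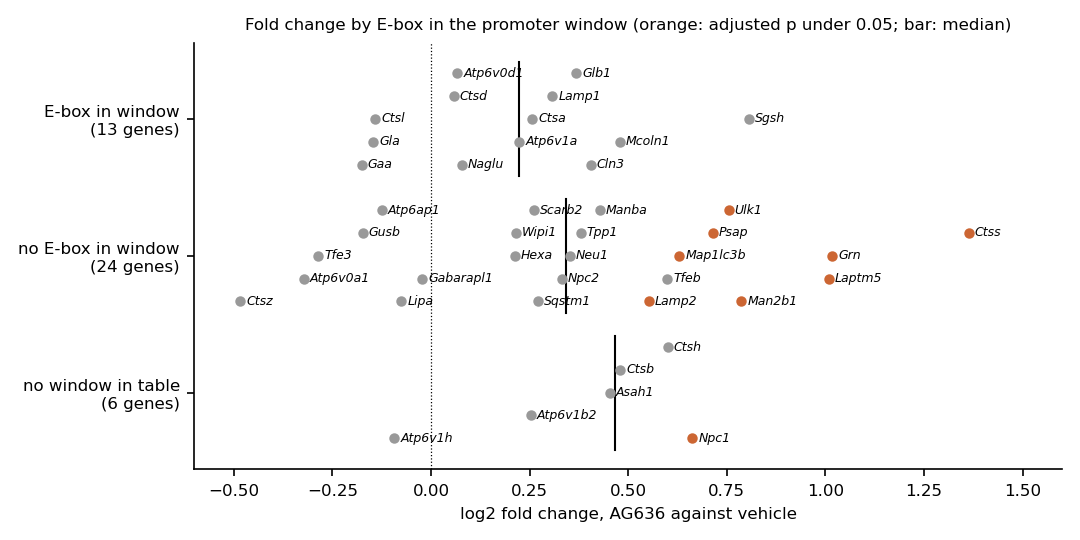
Log2 fold change of the 43 genes, AG636 against vehicle (x axis), in rows for the 13 genes with CACGTG in a promoter window, the 24 without and the 6 with no window in the table. Orange points are called genes and vertical bars are medians, and the row with an E-box holds no orange point.

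*Tfeb* and *Tfe3* themselves were not called by edgeR, DESeq2 or limma-voom, and neither had an unadjusted p under 0.05 in edgeR. *Tfeb*, a master regulator of lysosome genes, had 2.85, 5.62 and 5.01 CPM in the 3 Vehicle samples and 8.28, 5.16 and 7.17 in the 3 AG636 samples. The groups overlapped, since AG636 replicate 2 lay below Vehicle replicate 2. Its log2 fold change of 0.60 had a 95% confidence interval from -0.15 to 1.35 (SE 0.34, edgeR adjusted p = 0.225), on 185 counts in total, and the log2 fold change was 0.34 without Vehicle replicate 1. *Tfe3*, its close relative, had 26.9, 33.2 and 30.9 CPM with vehicle and 22.5, 29.1 and 23.2 with AG636. These groups also overlapped, and the log2 fold change was -0.29 with an interval from -0.68 to 0.11 (SE 0.18, edgeR adjusted p = 0.267). At this depth a change of up to 1.35 on the log2 scale for *Tfeb* lay within the interval.

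The lipid-handling and activator proteins held 3 of the 9 calls. *Grn* encodes progranulin, a secreted and lysosomal protein that is cut into granulins. It had 95.4, 139 and 140.4 CPM with vehicle and 268, 221 and 270 with AG636. Every AG636 sample was above every Vehicle sample, and within vehicle the first replicate was the lowest. *Grn* (chromosome 11, 102430315 to 102437048 of mm10) was 2.02-fold higher with AG636, with a log2 fold change of 1.02 (SE 0.16, edgeR adjusted p = 0.00494). For it and every other gene whose groups did not overlap, the exact permutation test of 3 against 3 gave a two-sided p of 0.1, the smallest it can give.

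*Psap*, the precursor of the saposins that present lipids to lysosomal enzymes, had 257, 261 and 279 CPM with vehicle and 377, 466 and 465 with AG636. The Vehicle samples lay close together and well under all AG636 samples. Its log2 fold change was 0.71 (chromosome 10, 60277627 to 60302597, SE 0.12, edgeR adjusted p = 0.00545). *Npc1* encodes the membrane protein that exports cholesterol from the lysosome, and it had 19.1, 23.4 and 21.5 CPM with vehicle and 32.5, 35.7 and 33.4 with AG636. Its groups were apart by more than the spread of either, and the log2 fold change was 0.66 (chromosome 18, 12189692 to 12236400, SE 0.16, edgeR adjusted p = 0.0197). Without Vehicle replicate 1, AG636 replicate 1 or AG636 replicate 3 its edgeR adjusted p was 0.0725, 0.0517 and 0.0614, and it was 0.0734 without Vehicle replicate 1 and AG636 replicate 2 together. Exons of *Npc1* (892 counts in all samples) overlap those of *Rmc1* (355 counts) on the opposite strand over 2612 bases, and the use of strand in counting is not stated.

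*Npc2*, the soluble partner that hands cholesterol to NPC1, had 423, 416 and 403 CPM with vehicle and 545, 473 and 545 with AG636. The groups did not overlap, yet the log2 fold change of 0.33 just missed the threshold (SE 0.11, edgeR adjusted p = 0.0501), though it passed in limma-voom (adjusted p = 0.0461). In edgeR it passed without AG636 replicate 2 (adjusted p = 0.0365) and when Vehicle replicate 1 was left out too (adjusted p = 0.0488). *Asah1*, acid ceramidase, had a log2 fold change of 0.45 (SE 0.23, edgeR adjusted p = 0.189). *Lipa*, the acid lipase that frees cholesterol from its esters, had -0.07 (SE 0.16, edgeR adjusted p = 0.766). Summed over the 6 genes, the level was 874, 912 and 906 CPM with vehicle and 1306, 1264 and 1380 with AG636.

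**Figure D4:**
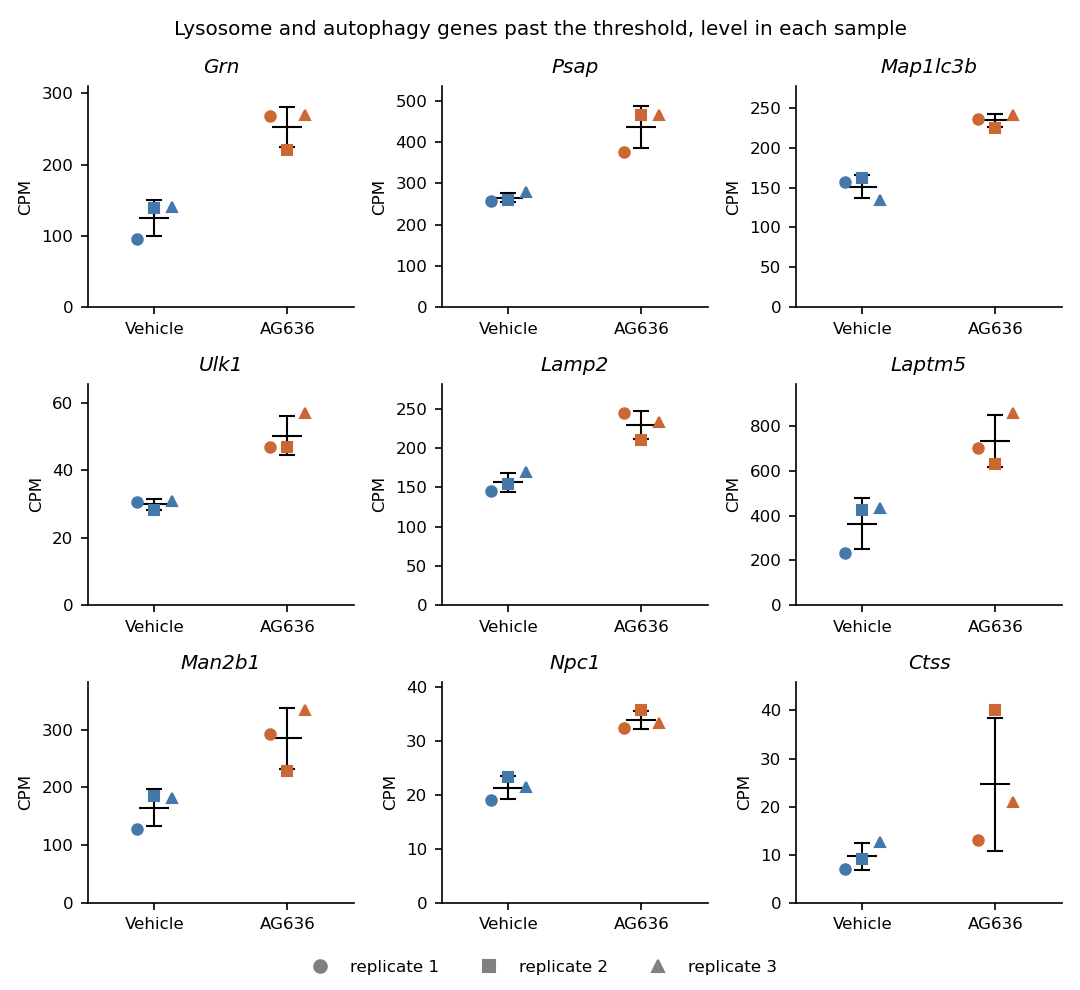
CPM in each sample (y axis, from 0) for the 9 called genes, with a symbol for each replicate number and the mean and SD of each group (n = 3) in black. In all 9 panels the AG636 samples lie above the Vehicle samples, by the least for *Ctss*, where AG636 replicate 1 is at 12.96 and Vehicle replicate 3 at 12.75.

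Of the lysosomal membrane proteins, 2 of 6 were called and all 6 log2 fold changes were above 0. *Laptm5*, a membrane protein of hematopoietic lysosomes, had 232, 424 and 435 CPM with vehicle and 704, 632 and 861 with AG636. Vehicle replicate 1 was far below its group mates, and all AG636 samples were above all Vehicle samples. The log2 fold change was 1.01 (chromosome 4, 130913125 to 130936141, SE 0.22, edgeR adjusted p = 0.0135), and 0.76 without Vehicle replicate 1. Without AG636 replicate 3 its edgeR adjusted p was 0.0536.

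*Lamp2*, which lines the lysosome and takes part in chaperone-mediated autophagy, had 145, 154 and 170 CPM with vehicle and 245, 210 and 233 with AG636. The groups did not overlap, and the log2 fold change was 0.55 (chromosome X, 38401357 to 38456454, SE 0.12, edgeR adjusted p = 0.0127), with an edgeR adjusted p of 0.0522 without AG636 replicate 1. *Lamp1*, its more abundant relative in the lysosomal membrane, had 323, 310.0 and 328 CPM with vehicle and 414, 381 and 395 with AG636. These groups did not overlap either, and the log2 fold change of 0.31 was close to the threshold without passing it (SE 0.10, edgeR adjusted p = 0.0558). *Mcoln1*, *Cln3* and *Scarb2*, which carries glucocerebrosidase to the lysosome, had log2 fold changes of 0.48, 0.41 and 0.26, and their groups overlapped. Exons of *Cln3* (857 counts) overlap those of *Apobr* (741 counts) on the opposite strand over 532 bases.

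Among the proteases only *Ctss* was called. Cathepsin S, known for cutting the invariant chain in antigen-presenting cells, had 7.13, 9.03 and 12.75 CPM with vehicle and 12.96, 40.0 and 20.95 with AG636. AG636 replicate 2 was at about 3 times the level of AG636 replicate 1, which barely exceeded the highest Vehicle sample. The log2 fold change was 1.36 (chromosome 3, 95526786 to 95556403, SE 0.39, edgeR adjusted p = 0.0325), on 536 counts in total. It was 0.83 without AG636 replicate 2, with an edgeR adjusted p of 0.0841, and 0.66 (edgeR adjusted p = 0.149) when Vehicle replicate 1 was left out as well. Its edgeR adjusted p was 0.0862 without Vehicle replicate 1, 0.107 without Vehicle replicate 2 and 0.0640 without AG636 replicate 3.

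*Ctsd*, the aspartic protease with the most counts of the group, had 423, 468 and 418 CPM with vehicle and 450.3, 430.1 and 482 with AG636. Its groups overlapped, and the log2 fold change of 0.06 had an interval from -0.18 to 0.30 (SE 0.11, edgeR adjusted p = 0.725). *Ctsb*, a cysteine protease, had 139.8, 112 and 120.1 CPM with vehicle and 216, 152 and 150.4 with AG636. The groups did not overlap, and AG636 replicate 1 was well above the others. The log2 fold change of 0.48 missed the threshold (SE 0.16, edgeR adjusted p = 0.0615) and passed it under the replicate block (adjusted p = 0.0394 in edgeR). It also passed without AG636 replicate 2, at 0.56 (edgeR adjusted p = 0.0483), and with Vehicle replicate 1 left out as well, at 0.66 (edgeR adjusted p = 0.0267), and it was 0.28 without AG636 replicate 1 (edgeR adjusted p = 0.225).

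*Ctsz*, a carboxypeptidase, went the other way, at 76.7, 102 and 117 CPM with vehicle and 71.8, 70.5 and 69.7 with AG636. All AG636 samples lay below all Vehicle samples and close to each other. Its log2 fold change of -0.48 had an edgeR adjusted p of 0.0560 (SE 0.16), while DESeq2 gave an adjusted p of 0.0326 and edgeR 0.0175 without Vehicle replicate 1 and 0.0161 when AG636 replicate 2 was also left out. The other proteases were not called: *Tpp1* (tripeptidyl peptidase) had a log2 fold change of 0.38, *Ctsa* 0.26, *Ctsh* 0.60 and *Ctsl* -0.14. Exons of *Ctsb* (4772 counts) overlap those of *Fdft1* (713 counts) on the opposite strand over 1545 bases, and those of *Ctsz* (2825 counts) overlap *Nelfcd* (2286 counts) over 20 bases. *Ctsh* and *Ctsl* were low, with 410 and 330 counts in total, and their groups overlapped.

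Of the 10 glycosidases and sulfatases, *Man2b1* was called. This acid alpha-mannosidase, which trims the sugar chains of glycoproteins, had 129, 184 and 182 CPM with vehicle and 293, 228 and 333 with AG636. The groups did not overlap, although the lowest AG636 sample was nearer to the highest Vehicle sample than to the highest AG636 sample. The log2 fold change was 0.79 (chromosome 8, 85083270 to 85098282, SE 0.18, edgeR adjusted p = 0.0148), and leaving out AG636 replicate 1 or AG636 replicate 3 gave an edgeR adjusted p of 0.0506 or 0.0597. *Gusb*, beta-glucuronidase, had 88.6, 88.2 and 121 CPM with vehicle and 96.0, 77.7 and 90.04 with AG636. Its groups overlapped, and the log2 fold change was -0.17 with an interval from -0.52 to 0.18 (SE 0.16, edgeR adjusted p = 0.457).

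*Sgsh*, which removes sulfate from heparan sulfate, had a log2 fold change of 0.81 on 173 counts (SE 0.29, edgeR adjusted p = 0.0689), and *Glb1*, beta-galactosidase, had 0.37 (SE 0.15, edgeR adjusted p = 0.0959). *Manba*, *Neu1*, *Hexa* and *Naglu* had values from 0.08 to 0.43, and *Gla* and *Gaa* had -0.15 and -0.17. In *Neu1*, the lysosomal sialidase, the spread lay within the groups: 25.9, 36.7 and 55.2 CPM with vehicle and 66.5, 25.2 and 58.1 with AG636. *Hexa* and *Naglu* were likewise lowest in Vehicle replicate 1 and AG636 replicate 2, the libraries with the lowest *Mpo* and the lowest summed immature markers. Of the 43 genes, 12 (27.9%) were lowest in both of these libraries within their groups, against 18.6% of all genes tested, and the part of those libraries in the values was not tested.

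None of the 6 V-ATPase subunits was called by edgeR, DESeq2 or limma-voom, and in edgeR 1 had an unadjusted p under 0.05, *Atp6v1b2*, with a log2 fold change of 0.25 and an interval from 0.001 to 0.50. *Atp6ap1*, an accessory protein of the pump, had 188, 203 and 154 CPM with vehicle and 170.1, 148 and 182 with AG636. *Atp6v1a*, the catalytic subunit, had 150.1, 157 and 190 CPM with vehicle and 214, 189 and 176 with AG636. In both genes the groups overlapped, with log2 fold changes of -0.12 (interval from -0.43 to 0.18) and 0.22 (interval from -0.07 to 0.52). *Atp6v0d1*, *Atp6v1h* and *Atp6v0a1* had 0.07, -0.09 and -0.32. The summed level of the 6 subunits ran from 592 to 623 CPM with vehicle and from 595 to 672 with AG636.

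The autophagy genes gave 2 calls. *Map1lc3b* encodes LC3B, the ubiquitin-like protein that is joined to lipid on the growing autophagosome. It had 157, 162 and 134 CPM with vehicle and 236, 225 and 241 with AG636, 2 well separated sets. The log2 fold change was 0.63 (chromosome 8, 121590361 to 121598760, SE 0.12, edgeR adjusted p = 0.00754). *Ulk1*, the kinase that starts autophagy, had 30.7, 28.1 and 30.9 CPM with vehicle and 46.9, 47.0 and 57.2 with AG636. Its Vehicle samples were nearly equal and all AG636 samples were higher, with a log2 fold change of 0.76 (chromosome 5, 110784488 to 110810097, SE 0.15, edgeR adjusted p = 0.0103).

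*Sqstm1*, which encodes the cargo receptor p62, had 77.9, 103.6 and 86.9 CPM with vehicle and 109, 105 and 111 with AG636. The groups did not overlap, since the highest Vehicle sample was just under the lowest AG636 sample, and the log2 fold change of 0.27 was not called (SE 0.14, edgeR adjusted p = 0.171). Exons of *Sqstm1* (3253 counts) overlap those of *Mrnip* (343 counts) on the opposite strand over 580 bases. *Wipi1*, which binds the phosphoinositide of early autophagosomes, had 0.22 and *Gabarapl1*, of the LC3 family, had -0.02 with an interval from -0.37 to 0.33. *Grn*, *Psap*, *Map1lc3b* and *Ulk1* passed the threshold in all 14 alternative fits, with log2 fold changes from 0.84 to 1.10, 0.64 to 0.81, 0.53 to 0.72 and 0.65 to 0.84 in that order.

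The rest of the pathway was followed in 5 lists of 150 other genes, of which 138 could be tested. Of these, 13 were called higher (9.42%) and 6 lower (4.35%), against 10.3% and 11.0% of all genes tested, so the share called higher was near the background. Their median log2 fold change was 0.18, with 100 above 0 and 38 below. Over all genes tested the median was 0.03, with 5797 above 0 and 5286 below. The counts of calls among the 138 moved with single libraries: 6 genes were called higher without AG636 replicate 3, 7 without Vehicle replicate 1, 7 without Vehicle replicate 2 and 8 without AG636 replicate 1. None was called lower by edgeR without Vehicle replicate 1 (10 at an unadjusted p under 0.05), and 1 was in each of the other 3 fits.

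Autophagy genes outside the 43 gave 5 of the higher calls and 1 lower call among 46 tested. These shares were 10.9% and 2.17%, against 10.3% and 11.0% of all genes tested, so the share called higher was near the background. *Calcoco1*, an autophagy receptor, had 10.9, 12.4 and 10.7 CPM with vehicle and 31.0, 42.9 and 43.4 with AG636, the largest log2 fold change of any listed pathway gene at 1.78 (SE 0.20, edgeR adjusted p = 0.00202). *Tecpr1*, which tethers autophagosomes to lysosomes, rose by 1.603 on the log2 scale (SE 0.27, edgeR adjusted p = 0.00549). *Rb1cc1*, the FIP200 subunit of the ULK1 complex, rose by 0.69 (SE 0.14, edgeR adjusted p = 0.0115), and *Uvrag* and the receptor *Nbr1* were also called higher. *Optn*, another autophagy receptor, was called lower at -0.81 (SE 0.22, edgeR adjusted p = 0.0281).

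Other hydrolases gave 5 higher and 2 lower calls among 31 tested (16.1% and 6.45%, against 10.3% and 11.0% of all genes tested). *Aga*, which cleaves asparagine from sugar chains, and *Siae*, a sialic acid esterase, had log2 fold changes of 0.77 and 0.73 (edgeR adjusted p = 0.00939 and 0.0120). *Ctso* and *Ppt1* were also called higher. *Acp5*, tartrate-resistant acid phosphatase, and *Hyal2*, a hyaluronidase, were called lower at -1.06 and -0.79. Among 33 other membrane and trafficking genes, *Cd68*, *Sort1* and *Slc36a1* were called higher (9.09%) and *Tpcn1* and *Abcb9* lower (6.06%). *Cd68*, a lysosomal glycoprotein also used as a macrophage marker, had 19.4, 29.7 and 33.9 CPM with vehicle and 91.5, 67.2 and 87.0 with AG636, a log2 fold change of 1.57 (SE 0.21, edgeR adjusted p = 0.00298). *Sort1*, a sorting receptor that binds progranulin, had 1.17 (SE 0.28, edgeR adjusted p = 0.0182).

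The other 12 V-ATPase subunits tested were not called by edgeR, DESeq2 or limma-voom, with 1 higher and 1 lower at an unadjusted p under 0.05 in edgeR. The lowest edgeR adjusted p belonged to *Atp6v1d*, at 0.34 on the log2 scale, and *Atp6v0c*, at -0.31 (edgeR adjusted p = 0.0944 and 0.0945). Of 16 genes of the MiT/TFE family and its control by Rag GTPases and folliculin, *Fnip2*, a folliculin partner, was called lower at -0.90 (SE 0.24, edgeR adjusted p = 0.0250) and none was called higher, with 3 higher at an unadjusted p under 0.05 and none higher in DESeq2 or limma-voom. Scaling by library size alone called 2 of them higher. *Mitf* and *Tfec*, the remaining family members, had 0.62 and -0.19 and were not called.

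**Figure D5:**
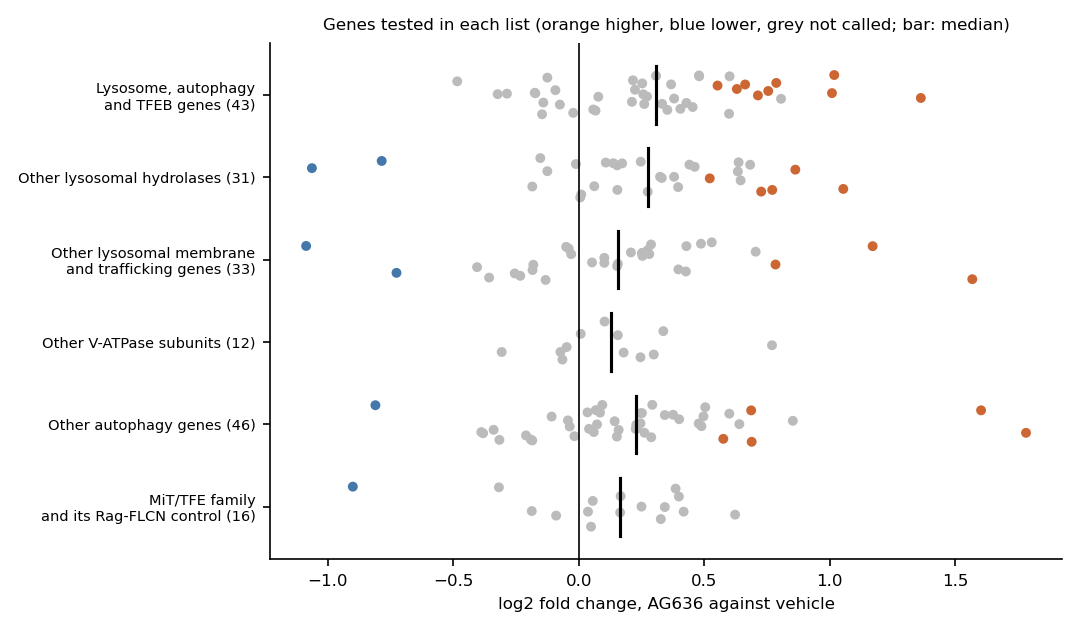
Log2 fold change, AG636 against vehicle (x axis), of every gene tested in the 43-gene list and in 5 lists of other pathway genes, with numbers tested in parentheses. Called genes are orange (higher) or blue (lower), black bars are medians, and the V-ATPase row has no colored point.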

How the data were processed

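RNA sequencing of sorted I1DN cells from 3 Vehicle and 3 AG636 samples was analysed, with groups and replicate numbers from the labels. The authors deposited read counts per gene. QuantSeq 3′ reads were trimmed with cutadapt (1.9.1 per the submitters' processing notes), mapped to mm10 (GRCm38) with HISAT2 (2.0.4) and counted with featureCounts of Subread (1.5.0-p3), while the methods of the study name other versions of cutadapt and Subread. The annotation release, strand setting and handling of multi-mapping reads are not given in the sources used here. The gene length column was not used. Symbols were found for 54723 of 54838 identifiers, and start and end were identical in GENCODE M21 for 98.75% of them.

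Tests on the counts used edgeR 4.0.16 under R 4.3.3 (filterByExpr with minimum counts of 10 and 15 in total, TMM, quasi-likelihood test, Benjamini-Hochberg over 11092 genes), without a replicate block. The SE is the log2 fold change divided by the square root of F. limma-voom 3.58.1, the package the study names, and DESeq2 1.42.0 were alternatives, besides other scalings, filters, thresholds, a block and left-out samples. The fits were tested on simulated data. Intervals are at 95%. The level of 3 counts was 0.392 to 0.637 CPM. Floors of this kind include counting error alone, since no molecular identifiers are described. Replicates differed by more than sampling noise (chi-square per degree of freedom from 6.22 to 14.6), and p-values measure the spread between these 6 mice.

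The 43 genes and the other lists were chosen with earlier results of these data known. Values in every sample are given for called genes, *Tfeb*, *Tfe3* and the 2 genes with the most counts in each role, and up to 3 genes in each direction are named for each other list, by adjusted p. *Ctsz*, *Neu1*, *Mpo*, *Cd14*, *C1qa*, *C1qc*, *Uvrag*, *Nbr1*, *Ctso* and *Ppt1* were named, or given in more detail, after their values were seen. Single markers were also named for their order within groups after their values were seen. The E-box search used RefSeq promoter windows. Results for some listed genes are not reported here.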

Additional observations from a re-analysis of the deposited data

How the results depend on the processing

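Over all genes, 2368 calls became 556 at an adjusted p under 0.01 (231 higher, 325 lower), and between 851 and 2311 when each sample was left out (399 to 1074 higher, 452 to 1298 lower). Of the 43 genes, 9 called higher became 3 at an adjusted p under 0.01, and between 5 and 10 when each sample was left out. The number called lower was 1 in place of 0, *Ctsz*, with DESeq2, with no filter and without Vehicle replicate 1 (leaving out each sample gave 0 to 1), and also 1 without Vehicle replicate 1 and AG636 replicate 2 together, a fit chosen after seeing the data. The median log2 fold change of the 43 genes was 0.40 with library size alone, and that of all genes tested was then 0.12. Of the other pathway genes, 13 called higher became 4 and 6 called lower became 0 at an adjusted p under 0.01. Leaving out each sample gave 6 to 16 higher and 0 to 5 lower, and the fit without both libraries gave 3 lower. Fewer samples or a stricter threshold are part of these alternatives by construction, and the cause of the other differences was not tested. The replicate block changed the call of *Ctsb* among the 43 genes and gave 10 higher, with 1960 calls over all genes. Numbers mark different mice: deviations of same-numbered samples correlated at -0.07, -0.19 and 0.24 over genes, and not every sample correlated best with its own number, so no pairing was assumed. All 43 genes were tested under every alternative, and no called gene changed direction. The median SE of a log2 fold change was 0.20, and the few counts of *Tfeb*, *Sgsh*, *Manba* and *Mcoln1*, between 124 and 185 in total, limit what could be detected for them.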
